A study of Mus musculus with 10 samples.

Results

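Rn7sk (7SK RNA), Rmrp (the RNA of RNase MRP), Rny1 and Rny3 (Y RNAs) are 4 small noncoding RNA genes that RNA polymerase III transcribes, and in mouse cells they were examined for chromatin immunoprecipitation signal of the transcription factors Gli2 and Elk1. They were found by taking every locus of the deposited table that overlapped one of these genes or lay within 1 kb of it in the mouse build mm10. The rule gave 4 of 1577 loci, 1 per gene, and each overlapped its gene. The loci were chosen by their listing in the table, which goes with their signal in these same libraries, since every locus had reached about 100 in some library (the lowest top signal was 100.1). The genes were also picked with their Gli2 signal known. Their Gli2 levels and the Gli2 differences are therefore described and support nothing further.

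Chromatin came from cells at 5 stages, with 1 library per antibody and stage, 10 libraries in all. Day 0 was tdMEFs, which the labels grow in MEF medium with serum, and days 4 and 8 were the same cells during neural reprogramming induced by the M9 medium. M9 contained CHIR99021, LDN193189, A83-01, Hh-Ag1.5, retinoic acid, SMER28, RG108, Parnate and bFGF in neural medium with N2 and B27 under low oxygen. Hh-Ag1.5 is an agonist of the Hedgehog pathway, of which Gli2 is a transcriptional effector, and Elk1 is an ETS factor downstream of the ERK kinases. The other stages were ciNSLCs, which the series text names together with the reprogramming course, and pri-NPC. The labels give no source animal, age or passage for any stage. No genetic alteration is stated for any group. No expression was measured, so no stage could be checked against cell markers, and no input or control-antibody library was analysed here. With 1 library in each group, differences between stages could not be set against a spread of replicates, and p-values are left out. In bulk chromatin a factor bound in fewer cells and a factor bound less in each cell cannot be told apart.

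RNA polymerase III makes short RNAs such as transfer RNAs, 5S ribosomal RNA and U6. Most of its genes carry promoter elements inside the transcribed part, as tRNA genes do with their A and B boxes, which the factor TFIIIC recognises. The 7SK, RNase MRP and Y RNA genes belong to a smaller class with promoters wholly upstream, made of a TATA box and a proximal sequence element bound by the SNAPc complex. 7SK RNA holds the elongation kinase P-TEFb in an inactive complex with HEXIM proteins, and so limits the release of paused RNA polymerase II. RNase MRP is a ribonucleoprotein enzyme that cleaves precursor ribosomal RNA. Y RNAs bind the Ro60 protein and are known for roles in RNA quality control and in the start of DNA replication.

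The Rn7sk locus (gene ID 19817) spanned positions 78175125 to 78175805 of chromosome 9, and its gene of 332 bp lay at 78175302 to 78175633. The Rmrp locus (gene ID 19782) spanned 43492665 to 43493185 of chromosome 4 around a gene of 275 bp at 43492785 to 43493059. Both Y RNA genes lay on chromosome 6. The Rny3 locus (gene ID 19874) spanned 47781385 to 47782005 around a gene of 101 bp at 47781624 to 47781724, and the Rny1 locus (gene ID 19872) spanned 47787805 to 47788345 around a gene of 111 bp at 47788070 to 47788180. The gap between the Y RNA genes was 6346 bp. Each locus extended past both ends of its gene, by 177 and 172 bp at Rn7sk, 120 and 126 bp at Rmrp, 239 and 281 bp at Rny3, and 265 and 165 bp at Rny1. The centres of locus and gene differed by 2.5 bp at Rn7sk, 3 bp at Rmrp, 21 bp at Rny3 and 50 bp at Rny1. With chromatin sheared to 200 to 400 bp, signal over the short gene and over its upstream promoter could not be separated.

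**Figure D1:**
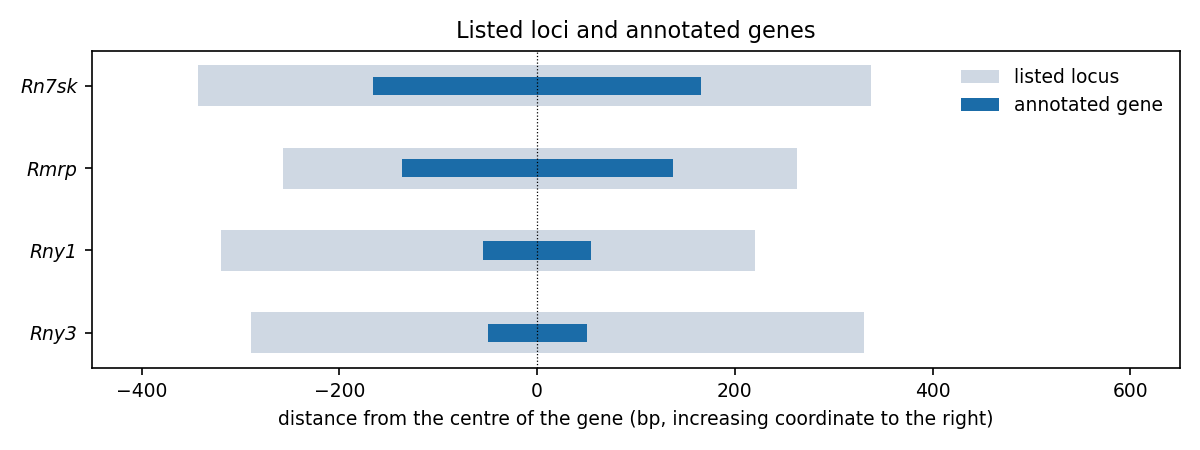
The listed locus (pale bar) and the annotated RNA gene (dark bar) for Rn7sk, Rmrp, Rny1 and Rny3, on an axis of distance in bp from the centre of the gene. Each locus covers its whole gene and runs past both ends, by at least 120 bp.

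The 4 loci were wide for the table. Their widths were 680 bp at Rn7sk, 520 bp at Rmrp, 540 bp at Rny1 and 620 bp at Rny3, against a median of 260 bp over all loci and 560 bp over the loci beside nuclear tRNA genes. Other annotated genes were close to a pair of them. The long noncoding RNA gene C920006O11Rik lay 281 bp from Rn7sk and the protein-coding gene Ccdc107 lay 281 bp from Rmrp, so that signal there cannot be assigned to the small RNA gene alone. Between the Y RNA genes lay only the pseudogene Rpl31-ps7 in the annotation. 7SK and Y RNAs also have dispersed pseudogene copies in the genome, and how reads matching several copies were treated is not given in the sources used here.

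Gli2 signal at Rn7sk was high in 3 libraries and lower in the other two. The deposited signal started from 218.6 at day 0, stood at 82.7 on day 4 and 105.2 on day 8, and reached 248.8 in ciNSLCs against 224.3 in pri-NPC. The top 3 stages lay within counting error of each other, and so did days 4 and 8. The step between these sets, from day 0 to day 8, was a ratio of 2.08, with a 95% counting interval of 1.04 to 3.84. Elk1 signal at Rn7sk was 13.7, 9.7, 14.4, 5.6 and 14.5 in the same order of stages, below the Gli2 signal in every stage.

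A counting interval here needs a count, which the files do not give. Low signals in each library fell on a regular grid, as multiples of a step less multiples of a background step, and dividing a signal by its step gave counted units. The Gli2 step was largest in the day 0 library, at 11.95, and smallest in ciNSLCs, at 3.00. It was 7.52 for day 4, 4.27 for day 8 and 5.87 for pri-NPC. Before background, the 4 loci then held 13 to 21 units on day 0 and 4 to 12 on day 4. They held 14 to 34 units on day 8, 20 to 40 in pri-NPC and 61 to 97 in ciNSLCs. The ciNSLC values thus rest on more units and the day 4 values on fewest. Intervals cover counting error only, and the depth of the libraries is unknown.

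Rmrp had the lowest Gli2 signal of the 4 loci at day 0 and in ciNSLCs. It had 155.3 at day 0, then 75.2 on day 4 and 59.8 on day 8, with 169.5 in ciNSLCs and 183.8 for pri-NPC. No neighbours in its order of stages differed beyond counting error, although day 0 was 2.07 times day 4, with an interval of 0.837 to 5.26. Stages further apart did differ, as day 8 was 0.385 times day 0, with an interval of 0.168 to 0.890. Elk1 signal at Rmrp was 3.4, 9.7, 10.2, 2.8 and 0.

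Rny1 had both the highest and the lowest Gli2 signal among the 4 loci. From 242.5 at day 0 it stood at 22.1 on day 4, at 139.3 on day 8 and at 270.7 in ciNSLCs, with 202.1 in pri-NPC. Day 4 stood apart from the next stage, day 8, which was 6.30 times higher, with an interval of 1.96 to 31.8 that rests on 3 units at day 4. The 4 higher stages each lay within counting error of their neighbour in the order. Stages further apart could still differ, as ciNSLCs was 1.94 times day 8, with an interval of 1.27 to 2.95. Elk1 signal at Rny1 was 10.3, 11.4, 0, 5.6 and 0.

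Rny3, the neighbour of Rny1, was highest at day 0. The Gli2 signal of 213.7 there compared with 90.2 on day 4, 67.7 on day 8, 112.1 in pri-NPC and 179.2 in ciNSLCs. Its levels formed a graded order in which no neighbours differed beyond counting error. The ends of the order did differ, as day 8 was 0.317 times day 0, with an interval of 0.152 to 0.660. Elk1 signal at Rny3 was 6.9, 0, 0, 3.5 and 9.3.

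**Figure D2:**
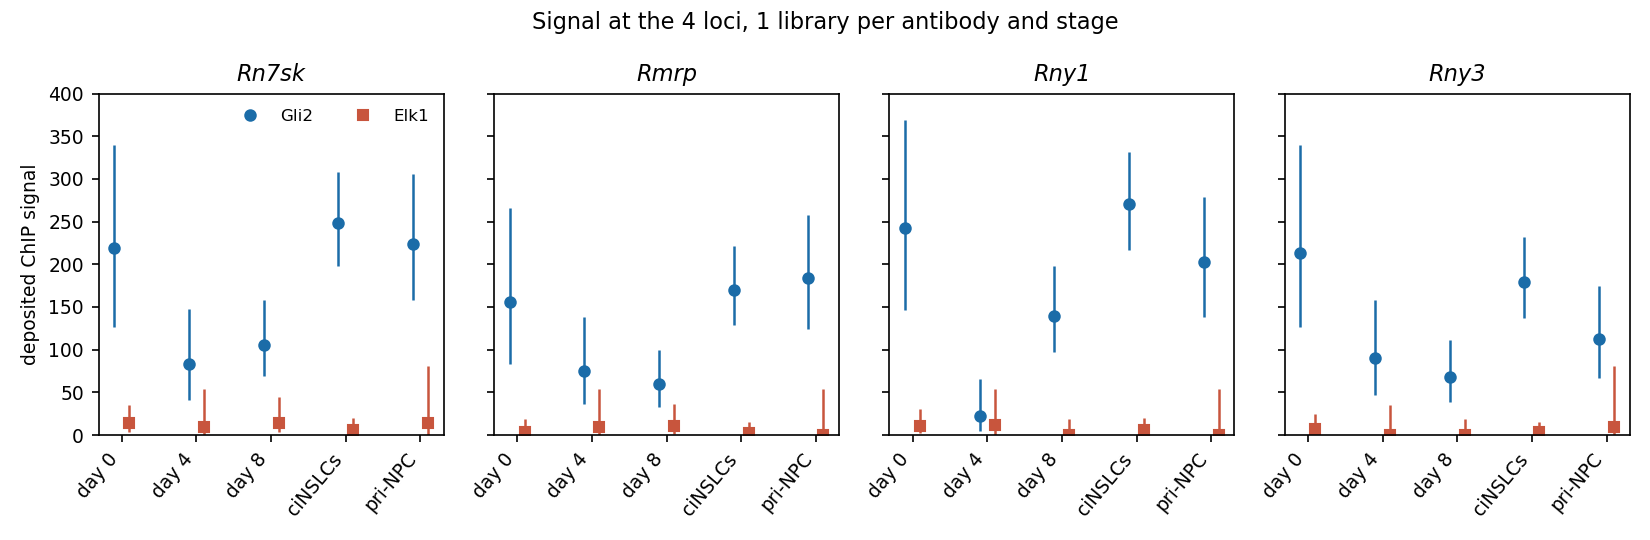
Deposited signal at the 4 loci (vertical axis, linear) in each stage, with circles for Gli2, squares for Elk1 and bars for the 95% counting interval of 1 library. Gli2 points at days 4 and 8 sit below day 0 in every panel, and no Elk1 point exceeds 14.5.

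In rank among the 1577 loci by Gli2 signal, all 4 stood higher on day 8 and in ciNSLCs than at day 0. In the Gli2 day 0 library 628 loci had reached 100, 357 of them in that library alone. On day 8 it was 90 loci and in ciNSLCs 203. A rise in rank from day 0 carries that selection. The share of all loci whose rank rose was not computed, so the rise has no background to be read against. Rn7sk ranked 214 at day 0, 78 on day 8 and 48 in ciNSLCs. The same ranks were 275, 211 and 133 at Rmrp, 187, 33 and 37 at Rny1, and 220, 190 and 119 at Rny3. On day 4 Rn7sk, Rmrp, Rny1 and Rny3 ranked 176, 197, 672 and 161, and in pri-NPC 63, 105, 83 and 231. Rny1 on day 4 and Rny3 in pri-NPC thus ranked lower than at day 0. Rn7sk and Rny1 passed 100 in 4 Gli2 libraries, and Rmrp and Rny3 in 3. None of the 4 was listed through 1 library alone, and none reached 100 in an Elk1 library.

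Within a library the 4 loci can be compared free of any scaling between libraries, though their widths differ. Of 30 such pairs over the 5 Gli2 libraries, 7 differed beyond counting error. These intervals use units after background, which understates counting error. As deposited, the ratio of the adjacent Y RNA loci varied between libraries. Rny1 was 0.245 times Rny3 at day 4, with an interval of 0.0453 to 0.926. At day 8 it was 2.06 times Rny3, with an interval of 1.10 to 4.01. Before background Rny1 and Rny3 held 4 and 12 units at day 4, and 34 and 20 at day 8. Both intervals end close to 1, so this difference between libraries is not secure. The ratio was 1.13 at day 0 (0.558 to 2.23), 1.51 in ciNSLCs (1.07 to 2.12) and 1.8 in pri-NPC (0.992 to 3.32). Rny1 was thus the lower of the pair in the day 4 library and the higher of the pair in the other 4.

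Gli2 signal exceeded Elk1 signal at the 4 loci in each stage. In 19 of the 20 pairs of libraries the Gli2 signal was at least 2-fold higher and beyond counting error, and the exception was Rny1 at day 4, with 22.1 for Gli2 and 11.4 for Elk1. By stage, 4 of 4 loci were at least 2-fold higher for Gli2 on day 0, against 56.2% of all loci, or 38.6% when the counting interval also had to exclude 1. On day 4 the number was 3 of 4, against 31.3% and 7.48% by these rules. On day 8 it was 4 of 4, against 34.9% and 13.0%. It was also 4 of 4 in ciNSLCs, against 32.8% and 17.9%, and in pri-NPC, against 26.9% and 14.1%. The 4 loci were listed through Gli2 libraries, since none reached 100 with Elk1. Of all loci, 677 had reached 100 in the Elk1 pri-NPC library alone and 190 in the Elk1 day 4 library alone. These counts against all loci carry that selection and are a description only. Elk1 was listed at 0 in 5 of the 20 pairs, and the ratio in the other pairs past the limit ran from 5.86 at Rmrp at day 8 to 60.5 at Rmrp in ciNSLCs. Elk1 signal between 0 and 14.5 corresponds to few units. Over the 10 pairs of stages, 0 of the 4 loci differed in Elk1 by 2-fold and beyond counting error. Of all loci, 0.127 to 47.4% did so per pair and direction. With so few units the 4 loci could hardly pass this rule, so the 0 is no sign of steady Elk1 signal. At Rmrp the interval for day 4 against day 0 ran from 0.0359 to 221. The antibodies differ in more than their target, so a ratio between them is no measure of relative occupancy.

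**Figure D3:**
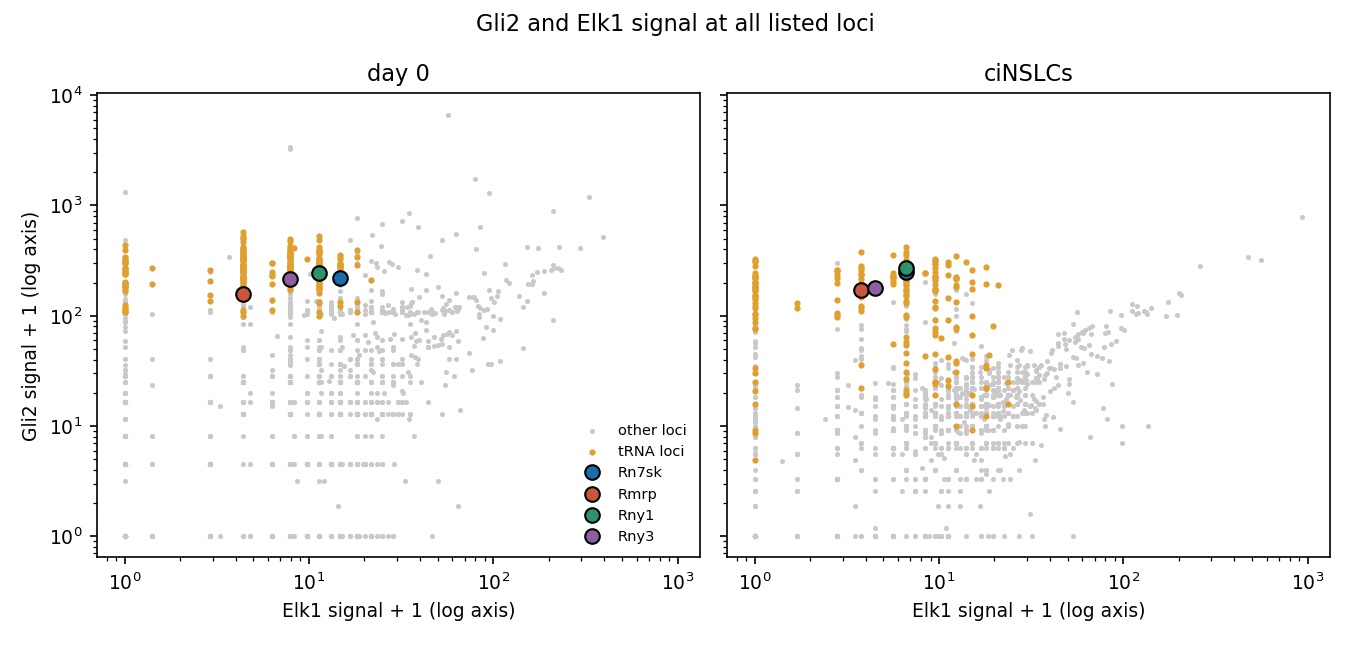
Gli2 signal (vertical) against Elk1 signal (horizontal) at all loci on log axes of signal plus 1, for day 0 and ciNSLCs, with the 4 loci as large points, tRNA loci as small coloured points and other loci in grey. The 4 loci lie among the tRNA loci, with Gli2 signals of 155.3 to 270.7 and Elk1 signals of 2.8 to 13.7 (Rn7sk is partly behind Rny1 in ciNSLCs).

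The comparison of stages addresses how Gli2 signal at these genes moved along the reprogramming course. As deposited, Gli2 signal at day 4 was at least 2-fold lower than at day 0 at 4 of the 4 loci, against 54.2% of all loci. With a counting interval that also excluded 1 it was 3 of 4, against 32.3%. The ratio of day 4 to day 0 was 0.378 at Rn7sk (0.164 to 0.860), 0.484 at Rmrp (0.190 to 1.2), 0.0911 at Rny1 (0.0180 to 0.318) and 0.422 at Rny3 (0.184 to 0.921). When the libraries were scaled to the same median, which shifts this comparison by 1.25 on the log2 scale, 1 of the 4, Rny1 at a log2 difference of -2.16, was over 2-fold lower, against 30.7% of all loci. The scaled values were -0.15 at Rn7sk, 0.21 at Rmrp and 0.01 at Rny3, so the direction at Rmrp and Rny3 turned. How the deposited signals were scaled is not given in the sources used here.

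Day 8 gave a similar picture as deposited and a different one when scaled. Gli2 signal was at least 2-fold lower than at day 0 at 3 of 4 loci, against 57.0% of all loci, and the same number passed with the counting interval, against 38.3%. The ratio of day 8 to day 0 was 0.481 at Rn7sk (0.260 to 0.966), 0.385 at Rmrp (0.168 to 0.890), 0.574 at Rny1 (0.329 to 1.08) and 0.317 at Rny3 (0.152 to 0.660). With equal medians 0 of 4 were 2-fold lower, against 30.9% of all loci, and the log2 differences became 0.43 at Rn7sk, 0.11 at Rmrp, 0.68 at Rny1 and -0.17 at Rny3.

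In ciNSLCs and pri-NPC the deposited Gli2 signal was near that of day 0, except at Rny3 in pri-NPC, with a ratio of 0.525. No locus of the 4 was 2-fold higher or lower in ciNSLCs than at day 0, where 21.2% of all loci were higher and 45.9% lower. The ratios were 1.14 at Rn7sk (0.689 to 2.05), 1.09 at Rmrp (0.595 to 2.19), 1.12 at Rny1 (0.690 to 1.94) and 0.839 at Rny3 (0.487 to 1.51). These intervals still allow differences of up to about the 2-fold limit. With equal medians the log2 differences were 1.43, 1.37, 1.41 and 0.99, so that 3 of 4, all but Rny3, were 2-fold higher, against 36.9% of all loci. The direction at Rny3 turned with that scaling.

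For pri-NPC against day 0, none of the 4 passed the limit either, against 24.7% of all loci higher and 41.0% lower. The ratio was 1.03 at Rn7sk (0.577 to 1.93), 1.18 at Rmrp (0.595 to 2.44), 0.833 at Rny1 (0.467 to 1.53) and 0.525 at Rny3 (0.258 to 1.05). Rny3 was the lowest of these. With equal medians the log2 differences were 0.90, 1.10, 0.60 and -0.06, so that Rmrp was 2-fold higher, 1 of 4 against 35.1% of all loci, and the direction at Rny1 turned from -0.26.

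Between ciNSLCs and pri-NPC, which do not involve the day 0 library, none of the 4 loci passed 2-fold, against 15.0% of all loci higher and 29.9% lower in ciNSLCs. The ratio of ciNSLCs to pri-NPC was 1.11 at Rn7sk (0.752 to 1.68), 0.922 at Rmrp (0.596 to 1.51), 1.34 at Rny1 (0.902 to 2.07) and 1.60 at Rny3 (0.95 to 2.86). With equal medians the log2 differences were 0.53, 0.27, 0.80 and 1.06. Rny3 then passed 2-fold, 1 of 4 against 21.4% of all loci, and the direction at Rmrp turned from -0.12.

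The comparison of ciNSLCs with day 8 was added after the levels were seen. Gli2 signal was at least 2-fold higher in ciNSLCs at 3 of 4 loci, against 33.0% of all loci, and at the same number with the counting interval, against 13.1%. The ratio was 2.37 at Rn7sk (1.47 to 3.80), 2.83 at Rmrp (1.57 to 5.55), 1.94 at Rny1 (1.27 to 2.95) and 2.65 at Rny3 (1.5 to 4.90). Scaling both libraries to the same median shifts this comparison by -0.23, and left log2 differences of 1.01, 1.26, 0.73 and 1.17. Scaled to the same tRNA median instead, 0 of the 4 were 2-fold higher, with 212 of all 1577 loci so. Rny1 then turned to -0.31 and Rn7sk to -0.02, while Rmrp stood at 0.24 and Rny3 at 0.14.

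**Figure D4:**
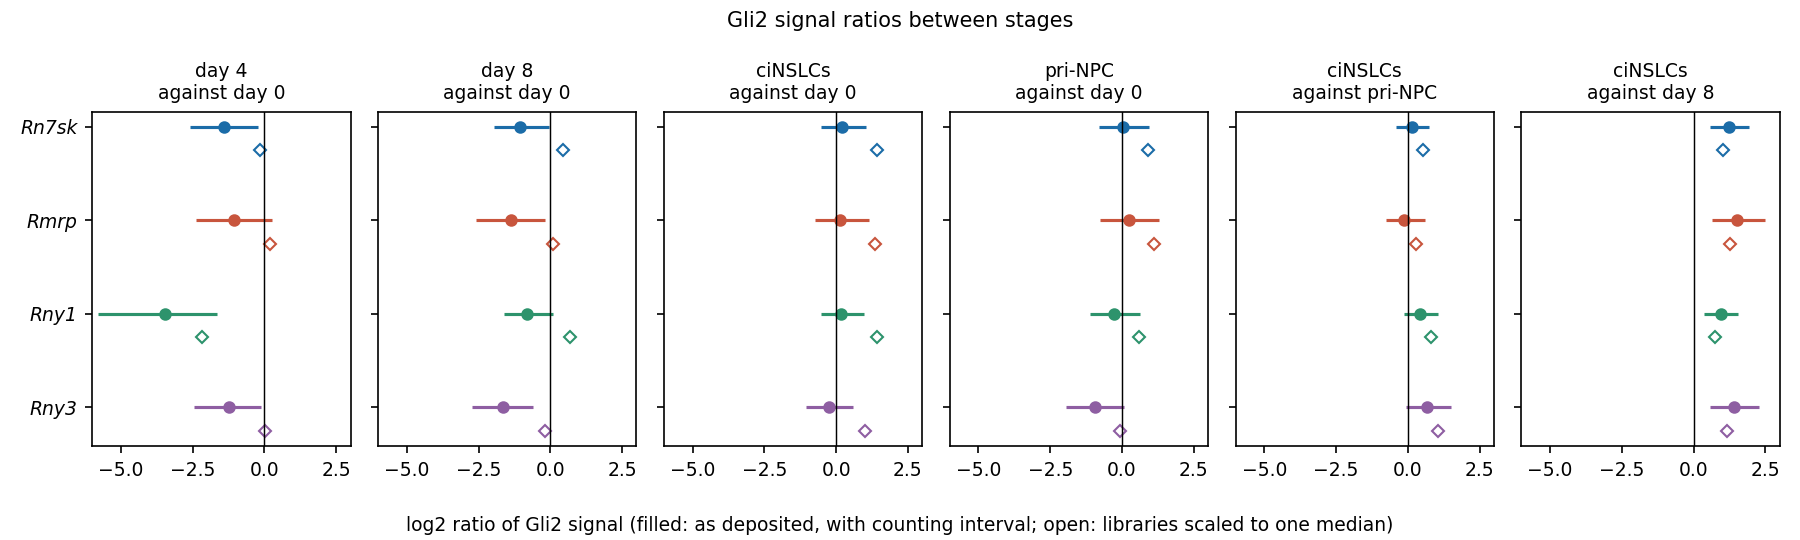
Log2 ratio of Gli2 signal between stages (horizontal axis) at each locus, filled with the 95% counting interval for signals as deposited and open for libraries scaled to the same median. Open points move to the right of the filled ones in the panels against day 0 and stay close to them for ciNSLCs against day 8.

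The loci beside tRNA genes offer a comparison with polymerase III genes whose promoters are internal. There were 208 such loci, which took in 270 of the 408 annotated nuclear tRNA genes. Their median Gli2 signal was 269.9 on day 0 but 60.2 on day 4 and 72.3 on day 8, and it was 173.9 for ciNSLCs and 135.6 for pri-NPC. At day 0 all 4 upstream-promoter loci lay below the tRNA median, at 0.810 times it for Rn7sk, 0.575 for Rmrp, 0.898 for Rny1 and 0.792 for Rny3. In pri-NPC the same ratios were 1.65, 1.36, 1.49 and 0.827, and in ciNSLCs 1.43, 0.975, 1.56 and 1.03. Set against the tRNA median, each of the 4 stood higher in ciNSLCs and pri-NPC than at day 0, except that Rny3 in pri-NPC depended on which tRNA loci were taken. Against the 152 tRNA loci that had reached 100 outside the Gli2 day 0 library, Rny3 was 0.749 times the median at day 0 and 0.654 times it in pri-NPC, so it stood lower there.

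The changes against day 0 restate these levels, since they use the same day 0 signals, and are no second support. Counting error was not carried into this comparison with tRNA loci. The median log2 difference of the tRNA loci against day 0 was -2.05 on day 4 and -1.96 on day 8, compared with -0.78 in ciNSLCs and -1.01 in pri-NPC. In ciNSLCs the 4 loci had log2 differences of 0.19, 0.13, 0.16 and -0.25, above those of 80.3 to 94.2% of tRNA loci. In pri-NPC Rmrp, at 0.24, was above 97.6% of them, while Rny3, at -0.92, was above 53.8%. At day 4 Rny1, at -3.40, was below most tRNA loci, with 7.69% of them lower, and the other 3 were above 82.7 to 95.7%. On the log2 scale the median of the 4 loci exceeded the tRNA median by 0.74 on day 4 and by 0.76 on day 8. The excess was 0.93 for ciNSLCs and 0.90 for pri-NPC, and these comparisons share the day 0 library. The 4 loci are chosen genes and not replicates, so their median is a description only. The shares of tRNA loci above or below were taken over all 208, of which 152 had reached 100 outside the Gli2 day 0 library. The rest stood below 100 in every other library, so these shares carry that selection. Because a locus could be listed through its day 0 signal, the comparison of medians was repeated without such tRNA loci. With only tRNA loci that had reached 100 outside the pair compared, the excess was 0.58, 0.56, 0.66 and 0.64.

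**Figure D5:**
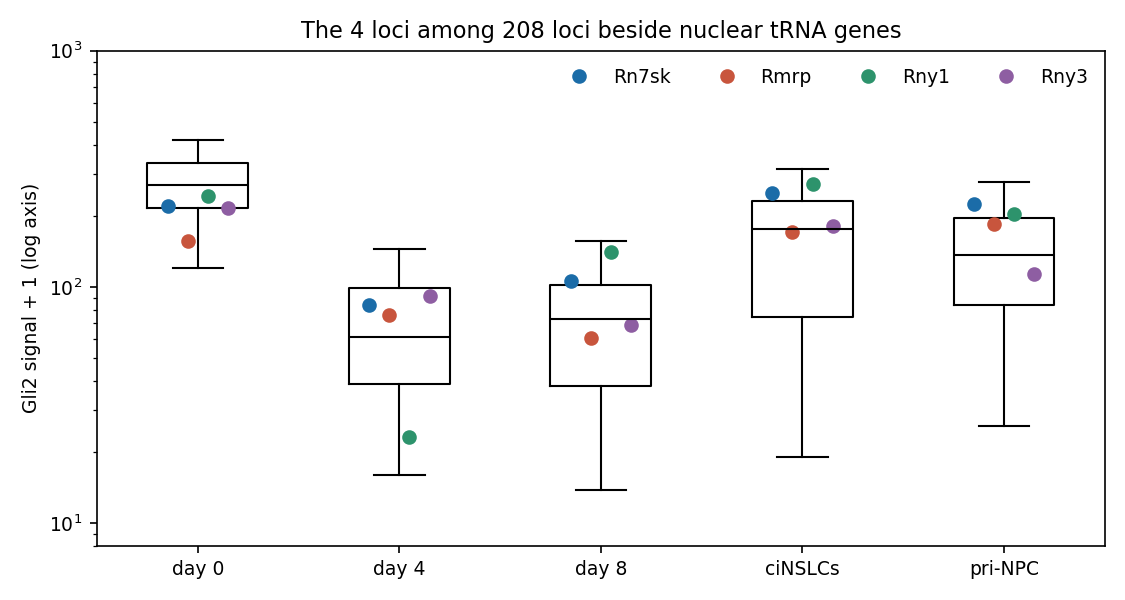
Gli2 signal plus 1 (log axis) at the 4 loci (points) among the 208 tRNA loci in each stage, with boxes for the quartiles and whiskers from the 5th to the 95th percentile. All 4 points lie below the tRNA median at day 0, and 3 of them lie above it in pri-NPC.

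Both annotated Y RNA genes and the single RNase MRP gene had a locus, but they are among the genes chosen, so this was fixed by the choice. In other small RNA classes the share of annotated genes with a locus differed. It was 66.2% of tRNA genes and 3.09% of the 1004 annotated snRNA genes, which include Rn7sk. None of the 4 RNase P RNA genes had a locus. From a list of 12 further polymerase III genes with elements upstream of the transcribed part, 9 were annotated and 2 had a locus. Vaultrc5, a vault RNA gene, went in Gli2 signal from 310.6 at day 0 to 36.7 on day 4 and 79.5 on day 8, and had 201.1 in ciNSLCs with 241.9 in pri-NPC. Rn7s2, a gene of the 7SL RNA of the signal recognition particle, had 182.7, 60.2, 25.6, 75.2 and 48.2 in the same stages. Both were lowest on day 4 or day 8, and Rn7s2 was also below its day 0 value in ciNSLCs and pri-NPC. Rpph1 (the RNA of RNase P), Rnu6 and Bc1 were among the genes with no locus, which says only that no locus within 1 kb of them was listed.

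Genes for the proteins that work with these RNAs were looked up within 50 kb of a locus, where 6.95% of all 21887 protein-coding genes had one. Of 9 genes of the 7SK complex, Hexim1 and Hexim2, which encode the inhibitors of P-TEFb, shared a locus 8580 bp from Hexim1. Its Gli2 signal was 119.5 at day 0 and between 2.3 and 17.6 in the later stages. Its Elk1 signal was at most 20.3, so this locus was listed through the Gli2 day 0 library alone. The later Gli2 values correspond to few units, so their order is not read, and a relation to Rn7sk was not tested. Of 11 genes for RNase MRP and RNase P proteins, Rpp21 and Rpp25 had a locus within 50 kb. Of 9 genes for Y RNA proteins, Ptbp1 and Elavl4 did, and the locus counted for Ptbp1 lay 44490 bp away beside the snRNA gene Gm24019. Of 32 genes of the polymerase III machinery 3 did. Those of Polr3e lay beside the tRNA gene n-TLaag4 inside the gene, that of Gtf3c6 beside Rnu3a, and that of Polr3k 46475 bp away.

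The loci whose pattern over the 10 libraries was most like that of each of the 4 were mostly tRNA loci. By Pearson correlation of log2 signal, a description that the difference between antibodies dominates, Rn7sk was closest to the locus of n-TKctt14 (r = 0.989), Rmrp to n-TRtcg5 (r = 0.993), Rny1 to n-TNgtt14 (r = 0.986) and Rny3 to Rnu3a (r = 0.962). Over the 5 Gli2 libraries alone these values were 0.924, 0.910, 0.922 and 0.449, so the likeness of Rny3 to Rnu3a rested on the antibodies. Of the 50 loci most alike to each, 41 were tRNA loci for Rn7sk, 41 for Rmrp, 42 for Rny1 and 36 for Rny3, while tRNA loci were 24.7% of the 842 loci near a gene.

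Just outside the 1 kb window, the nearest further locus lay 3119 bp from Rny3, at 47778045 to 47778505 of chromosome 6, with no annotated gene within 1 kb. It held Gli2 signals of 297.3 on day 0, 111.9 on day 4 and 98.7 on day 8, then 187 in ciNSLCs with 127.1 in pri-NPC. Its stages stood in the same order as those of Rny3, where no neighbours differed beyond counting error. The tRNA medians also ran from day 0 through ciNSLCs and pri-NPC to days 4 and 8, so this part of the order is not particular to the pair. Among the tRNA medians day 8, at 72.3, was above day 4, at 60.2, unlike the pair. For the outside locus itself, no intervals between stages were calculated. Elk1 signal at the outside locus was 6.9, 22.8, 5.1, 0 and 0.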

How the data were processed

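Chromatin was crosslinked, sheared, immunoprecipitated with Elk1 or Gli2 antibody and sequenced as single reads, per the labels' protocols. Bowtie2, SAMtools, FastQC, CASAVA 1.8.4 and build mm10 are named in the submitters' processing notes. For peak calling, background and scaling, the method is not given in the sources used here. Deposited signal, 1 value per locus and library in a table of 1577 loci by the authors, is never negative. All 10 columns were matched to samples by name.

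RefSeq genes of GRCm38.p6 (mm10 is the same build) gave positions without strand or exons. Whether the printed locus coordinates count from 0 or from 1 is not stated. No promoter sequence was matched for the 4 genes.

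For each library a step and, per stage, a background step were found from signals below 60 and refined over signals below 300. Of the signals below 60, 85.1 to 96.5% lay within 0.06 of the grid. That signals are scaled counts less a scaled background is an inference from the values. Steps were checked on simulated data. Signals were compared as log2(signal + 1), which understates differences of low signals, with a 2-fold limit. Ratio intervals are 95% exact conditional binomial (Clopper-Pearson) on counted units, which ignores the background subtraction, and those of levels are exact Poisson. No test was possible with 1 library per group. The alternatives were other scalings, pseudocounts, fold limits, windows and correlation measures.

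The 4 loci, the gene lists and the naming rule (the 4 genes, every listed partner or polymerase III gene with a locus, and the loci most alike) were chosen with earlier results of these data known. Calculations used pandas 2.3.3, scipy 1.17.1 and numpy 2.4.6 under Python 3.11.15, with plots by matplotlib 3.10.9.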

Additional observations from a re-analysis of the deposited data

How the results depend on the processing

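Scaling decided most stage differences of Gli2 at the 4 loci. With libraries scaled to the same median, the number 2-fold lower at day 4 than day 0 was 1 and at day 8 it was 0, and the number 2-fold higher was 3 in ciNSLCs against day 0, 1 in pri-NPC against day 0 and 1 in ciNSLCs against pri-NPC. Of 24 log2 differences 8 turned, namely 0.21 at Rmrp and 0.01 at Rny3 for day 4, 0.43 at Rn7sk, 0.11 at Rmrp and 0.68 at Rny1 for day 8, 0.99 at Rny3 in ciNSLCs and 0.60 at Rny1 in pri-NPC against day 0, and 0.27 at Rmrp in ciNSLCs against pri-NPC. Libraries were also scaled to the same tRNA median, an alternative chosen after seeing the data. At day 4, 1 locus was then lower and 1 higher, beside 310 lower and 701 higher of all 1577 loci. At day 8, 0 were lower and 1 higher, beside 400 and 624 of all loci. In pri-NPC 2 were higher, beside 590 of all loci. In ciNSLCs against day 8 this scaling left 0 higher, beside 212 of all loci. The 13 values that turned under it were 0.76 at Rn7sk, 1.11 at Rmrp and 0.91 at Rny3 for day 4, 0.84 at Rn7sk, 0.52 at Rmrp, 1.09 at Rny1 and 0.24 at Rny3 for day 8, 0.38 at Rny3 in ciNSLCs, 0.73 at Rny1 and 0.06 at Rny3 in pri-NPC, -0.21 at Rn7sk for ciNSLCs against pri-NPC, and -0.02 at Rn7sk and -0.31 at Rny1 for ciNSLCs against day 8. A 3-fold limit left 1 locus lower at day 4, beside 693 of all loci, and 1 at day 8, beside 743. It left 0 higher in ciNSLCs against day 8, beside 301 of all loci. A 1.5-fold limit gave 1 lower in pri-NPC against day 0, beside 794 of all loci. It gave 1 higher in ciNSLCs against pri-NPC, beside 357 of all loci. The cause was not tested. Pseudocounts of 0.1 and 5, and units before background (added after seeing the data), turned 0 of 24. A pseudocount of 5 left 3 loci 2-fold lower at day 4, without Rmrp, beside 787 of all loci. Units before background moved 2 past the limit, Rny3 in pri-NPC against day 0 (-1.03) and Rny1 in ciNSLCs against day 8. A window of overlap gave the same 4 loci and one of 5 kb gave 5. No paired analysis was possible because each antibody and stage had 1 library, and leaving out a library leaves no value. By Spearman correlation 1 of the 3 loci closest to Rmrp was a tRNA locus, in place of 3, and over Gli2 libraries alone 1 of 3 for Rny1, in place of 2. The motif search was not run. Few counted units limit day 4 most.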
